A study of Mus musculus with 4 samples.

Results

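The genes Gad2, Calb1 and Lhx6, which mark inhibitory interneurons of the cerebral cortex, were followed through 4 two-colour arrays of mouse embryonic neocortex. They were taken by gene symbol from the platform annotation and were read by 4 of the 6856 probes, 1 each for Gad2 and Calb1 and 2 for Lhx6. These are 3 of 6041 genes with a symbol, and all 4 probes had a value on every array. They were chosen by their log ratios on replicates 2 to 4, where earlier results of these data had placed them at the front of an interneuron list. Those values are therefore a description and carry no test, and the rule by symbol has no threshold.

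Each array compared RNA from a null mutant sample, whose brain the labels call synaptically silent, with RNA of a pool labelled wild type and made from 4 biological replicates. All RNA was total RNA from the neocortex at embryonic day 16 on a C57BL/6 background, and the series title asks which genes synaptic activity regulates. Null RNA carried Cy3 on replicate 1 and Cy5 on replicates 2, 3 and 4. For replicate 1, day 14 stands in the source name, against day 16 in the title and characteristics. The labels call the null samples biological replicates and do not say how many embryos each sample holds.

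Cortical interneurons release GABA and are born outside the cortex, in the ganglionic eminences below it, from which they migrate tangentially into the cortical wall before birth. Gad2 encodes the glutamate decarboxylase GAD65, which makes GABA near synaptic vesicles, while its relative Gad1 encodes GAD67, which supplies most GABA of the cell body. Lhx6 encodes a LIM homeodomain transcription factor that acts downstream of Nkx2-1 in interneurons from the medial ganglionic eminence. Calb1 encodes calbindin, a calcium buffer with EF-hand domains found in many migrating interneurons and also in neurons of other brain regions.

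Each value is a log ratio between the channels, read here as log2, although the log base is not stated, so that each fold rests on that base. Because no source used here states which channel was the numerator, signs are given as deposited, and no sign says in which genotype a gene was higher. Replicates 2 to 4 share a dye orientation and can be compared with each other. Null RNA carried Cy5 on all of them, so in their mean a dye effect on a gene cannot be told apart from genotype. The sign of replicate 1 has to be turned if the ratio always had the same dye on top. All arrays shared 1 pool, so a mean ratio leaves out the spread between controls, and in RNA of whole neocortex fewer cells of a type and less RNA per cell cannot be told apart. Ratios give no level in either channel, so the presence of interneuron or cortical markers could not be checked.

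Between 5777 and 5873 probes had a value on each array, with an SD over probes of 0.40 to 0.63 and replicate 3 the widest. On replicates 2 to 4, limma called 0 of 5720 probes at a Benjamini-Hochberg adjusted p under 0.05 (0%), and 553 at an unadjusted p under 0.05. Of all probes, 16.3% were positive and 17.3% negative on replicates 2, 3 and 4 alike.

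Gad2 had a positive log2 ratio on each of replicates 2 to 4 and a value near 0 on replicate 1. Its log2 ratio was 0.92, 0.74 and 0.49 on replicates 2, 3 and 4 and -0.042 on replicate 1. The 3 arrays with null RNA in Cy5 all stood above the single array with null RNA in Cy3, whichever sign the latter is given. A dye effect on this probe cannot be told apart from genotype on those 3 arrays. The mean of replicates 2 to 4 was 0.72 ± 0.22 (SD, n = 3), a ratio of 1.65 in size. Gad2 lay above 98.9% of all probes on replicate 2, above 90.9% on replicate 3 and above 93.3% on replicate 4, but above only 44.9% on replicate 1. Among the 5051 genes measured on replicates 2 to 4, 98.8% had a lower mean than Gad2. Its SD over these arrays was smaller than that of the typical gene, whose median SD was 0.27.

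Calb1 ran the other way on replicates 2 to 4, and its size rested on replicate 2. The log2 ratio of Calb1 was -1.23, -0.41 and -0.24 on replicates 2, 3 and 4 and 0.052 on replicate 1. Replicates 2, 3 and 4 were all negative, replicate 2 far more so than the others, and replicate 1 was again near 0. The mean was -0.63 ± 0.53 (SD, n = 3), and without replicate 2 it was -0.33. On replicate 2 only 1.28% of probes lay below Calb1, whereas 18.5% did on replicate 3 and 19.3% on replicate 4. The SD of Calb1 was larger than that of 85.9% of genes.

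Lhx6 was negative on average, with the smallest size among the members, and its probes differed. The probe with ID 2349 had a log2 ratio of -0.49, -0.41 and -0.14 on replicates 2, 3 and 4 and -0.54 on replicate 1. The probe with ID 136 had -0.24, -0.51 and 0.11 on replicates 2, 3 and 4 and 0.18 on replicate 1. The first was thus negative on every array as deposited, and the second was negative on replicates 2 and 3 and positive on the others. Their means over replicates 2 to 4 were -0.35 ± 0.18 and -0.22 ± 0.31 (SD, n = 3), and the mean of both probes was -0.28 ± 0.23. With replicate 1 turned and added, the mean of both probes was -0.17.

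The distance between the Lhx6 probes can be set against the 85 genes that had exactly 2 probes measured on all arrays. The means over replicates 2 to 4 of the Lhx6 probes lay 0.13 apart, against a median distance of 0.23 for those genes. On replicate 1 the Lhx6 probes lay 0.72 apart, farther than 82.4% of the pairs and against a median distance of 0.29. The median distance between probes of 1 gene on a single array was between 0.23 and 0.36. Both Lhx6 values on replicate 4, and the Calb1 value there, were of that size or smaller.

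**Figure D1:**
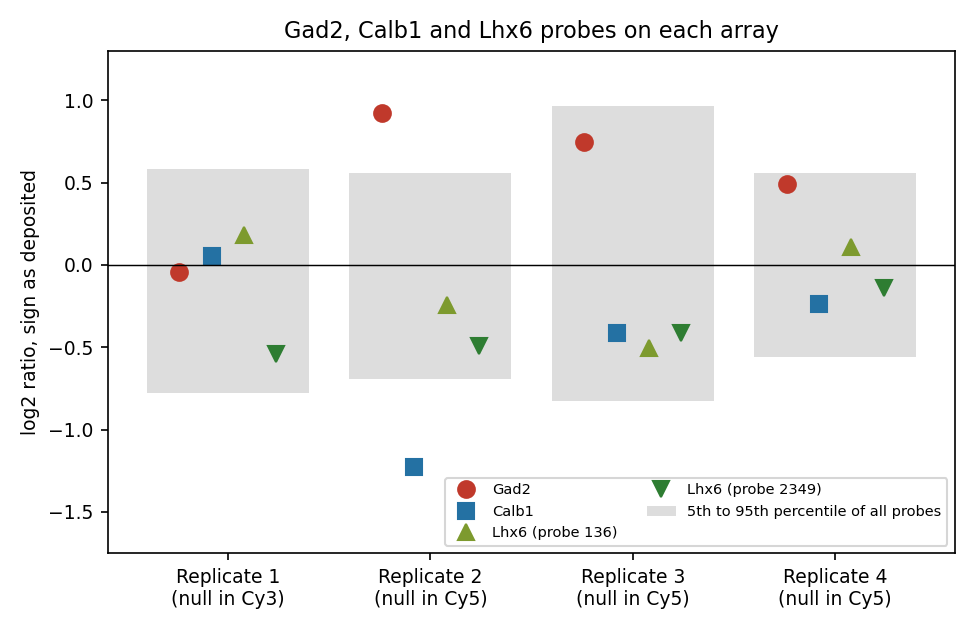
Log2 ratio, with the sign as deposited, of each probe of Gad2, Calb1 and Lhx6 (points) on the 4 arrays, with the 5th to 95th percentile of all probes on that array as a grey bar. Gad2 leaves the bar on replicate 2 at 0.92 and Calb1 leaves it at -1.23, while on replicate 1 the probes of both genes sit near 0.

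Among themselves the members kept 1 order on replicates 2 to 4 only in that Gad2 stood on top. Gad2 exceeded Calb1 by 2.15 on replicate 2, 1.16 on replicate 3 and 0.73 on replicate 4, and the difference on replicate 1 was -0.093. Gad2 exceeded the mean of the Lhx6 probes by 1.29, 1.20 and 0.51 on replicates 2, 3 and 4 and by 0.14 on replicate 1. Calb1 and Lhx6 changed places, with a difference of -0.86, 0.048 and -0.22 on replicates 2, 3 and 4 and 0.23 on replicate 1. Their mean difference of -0.34 ± 0.47 (SD, n = 3) was within the spread between arrays.

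Each member was set beside its closest measured relative, which separated Gad2 from Gad1 most clearly. Gad1 had a log2 ratio of -0.36, -0.11 and -0.27 on replicates 2, 3 and 4 and -0.84 on replicate 1. It was negative on all 4 arrays as deposited, while Gad2 was positive on 3 of them, so the values of the enzymes do not overlap on replicates 2 to 4. Gad2 was chosen by its log ratios there, and 17.3% of all genes were likewise negative on those 3 arrays. Gad2 exceeded Gad1 by 1.29, 0.85 and 0.76 on replicates 2, 3 and 4, a mean difference of 0.96 ± 0.28 (SD, n = 3). On replicate 1 the difference was 0.80 as deposited and -0.80 with the sign turned. Slc32a1, which loads GABA into synaptic vesicles, had -0.67, -0.052 and -0.27 on replicates 2, 3 and 4 and -0.16 on replicate 1. Of the genes for GABA synthesis and loading that were measured, Gad2 was thus the only positive member of 3 on replicates 2 to 4.

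The 250 bases before the start sites of Gad2, Gad1 and Lhx6 are shown as a description, with 3 start sites for Lhx6. Any link between these bases and the log ratios was not tested, and the Lhx6 probes were not assigned to start sites. The sequences are from RefSeq on build GRCm38.p6, which matched Gad2, Gad1 and Lhx6, and are written 5′ to 3′ on the strand of the gene. Capitals mark a match, on either strand, to any of the motifs searched. The TATA box was searched as TATAAA. The GC box was searched as GGGCGG. The half-site of the cAMP response element, an element known from activity-regulated genes, was searched as TGACG. A homeodomain site was searched as TAATTA. No matched motif overlapped another. The Gad2 window is chr2:22622077-22622326 on the plus strand and the Gad1 window chr2:70561879-70562128 on the plus strand. The Lhx6 windows are on the minus strand, at chr2:36105409-36105658, chr2:36104534-36104783 and chr2:36104061-36104310.
Gad2: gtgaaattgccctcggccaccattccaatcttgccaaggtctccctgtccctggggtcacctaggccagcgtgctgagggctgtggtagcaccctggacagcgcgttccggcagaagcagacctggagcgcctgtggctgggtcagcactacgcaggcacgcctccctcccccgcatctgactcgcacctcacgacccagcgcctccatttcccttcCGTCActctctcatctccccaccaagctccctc
Gad1: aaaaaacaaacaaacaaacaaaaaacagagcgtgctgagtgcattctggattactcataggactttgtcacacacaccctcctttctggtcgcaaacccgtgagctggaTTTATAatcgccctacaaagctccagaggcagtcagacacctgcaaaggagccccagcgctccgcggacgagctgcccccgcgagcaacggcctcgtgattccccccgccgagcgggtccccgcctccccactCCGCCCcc
Lhx6, start site 1: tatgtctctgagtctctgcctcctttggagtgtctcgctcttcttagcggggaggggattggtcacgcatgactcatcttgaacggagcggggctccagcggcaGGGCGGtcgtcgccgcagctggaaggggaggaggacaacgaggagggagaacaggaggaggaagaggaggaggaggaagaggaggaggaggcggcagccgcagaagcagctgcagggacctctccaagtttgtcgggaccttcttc
Lhx6, start site 2: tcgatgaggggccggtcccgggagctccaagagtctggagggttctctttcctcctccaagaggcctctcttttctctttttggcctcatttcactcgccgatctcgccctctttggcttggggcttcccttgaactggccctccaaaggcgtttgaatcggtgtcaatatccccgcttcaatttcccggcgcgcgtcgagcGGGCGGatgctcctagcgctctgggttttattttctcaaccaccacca
Lhx6, start site 3: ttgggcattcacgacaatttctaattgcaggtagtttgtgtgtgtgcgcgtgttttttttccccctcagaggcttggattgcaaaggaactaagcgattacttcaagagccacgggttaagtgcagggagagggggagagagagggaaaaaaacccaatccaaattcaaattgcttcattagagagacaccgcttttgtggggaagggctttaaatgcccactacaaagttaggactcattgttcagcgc

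The Gad2 window held 1 match to TGACG, on the opposite strand and beginning 33 bases before the start site. This half-site is present in 17.8% of all 32851 windows of 250 bases. The Gad1 window held a TATAAA match on the opposite strand, 141 bases before the start site, and a GGGCGG match on the opposite strand, 8 bases before it. Lhx6 had a GGGCGG match at start site 1 and another at start site 2, and these letters are not in the window of start site 3. GGGCGG is present in 32.7% of all windows, TATAAA in 12.4% and TAATTA in 4.84%, the last in none of the windows shown. A match is a description of letters, and which start site is used in these samples was not measured.

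Calb2, which encodes calretinin, varied more than Calb1. Its log2 ratio was -0.40, 0.51 and -1.26 on replicates 2, 3 and 4 and -0.22 on replicate 1. Calb1 minus Calb2 was -0.83, -0.92 and 1.02 on replicates 2, 3 and 4 and 0.27 on replicate 1, so that neither gene was lower throughout. The mean difference of -0.24 ± 1.10 (SD, n = 3) was far inside the spread between arrays. S100g, the small intestinal calbindin, was on the array without a value, and Pvalb was not analysed here.

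Lhx8, the LIM homeodomain factor closest to Lhx6 and a regulator of cholinergic neurons, had a log2 ratio of -0.39, 0.17 and 0.047 on replicates 2, 3 and 4 and -0.60 on replicate 1. Lhx6 minus Lhx8 was 0.024, -0.63 and -0.065 on replicates 2, 3 and 4 and 0.42 on replicate 1. Their mean difference of -0.22 ± 0.35 (SD, n = 3) did not exceed the spread between arrays.

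**Figure D2:**
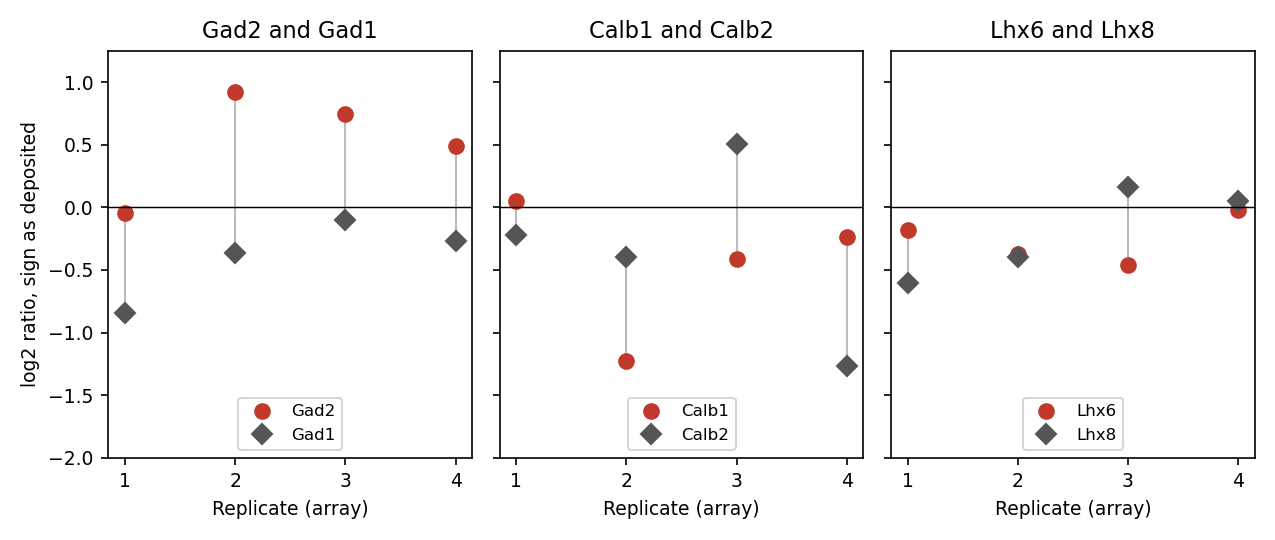
Log2 ratio, with the sign as deposited, of Gad2 with Gad1, Calb1 with Calb2 and Lhx6 with Lhx8 on replicates 1 to 4, joined by a grey line on each array. Gad2 stands 0.76 to 1.29 above Gad1 on every array as deposited, while the other pairs change order.

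The interneuron genes around the members come from a list of 60 markers and regulators, of which 36 were measured on replicates 2 to 4. With the members included, 24 of the 36 had a negative mean and 12 a positive one, or 66.7% and 33.3% beside 52.9% and 47.1% of all genes. The list median was -0.066, against -0.019 over all 5051 genes. Of the 36, 4 were positive and 8 negative on all of replicates 2 to 4, which is 11.1% and 22.2% of the list beside 16.3% and 17.3% of all genes. Without Gad2, Calb1 and Lhx6, 3 of 33 genes were positive and 6 negative throughout. None of these 33 had an adjusted p under 0.05 with limma. Of the 33, 0 had an unadjusted p under 0.05, a mark that 9.46% of all genes reached. The members left out had been chosen for standing at the front of an interneuron list on these arrays. That choice can lower the counts without them, so these do not show whether the other interneuron genes differ from all genes.

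Peptides and nitric oxide synthase mark classes of mature interneurons. Of 7 such genes, 5 had a positive mean, beside 47.1% of all genes, and 2 were positive on all of replicates 2 to 4, beside 16.3%. The group median was 0.17. Npy, neuropeptide Y, had log2 ratios of 0.21, 0.31 and 0.41 on replicates 2, 3 and 4 and 0.28 on replicate 1. Cck, cholecystokinin, had 0.19, 0.26 and 0.24 on replicates 2, 3 and 4 and -0.094 on replicate 1. Npy and Cck were the members of this group that were positive on all of replicates 2 to 4. Penk, the enkephalin precursor, had a mean of 0.30 ± 0.50 (SD, n = 3), Cort, cortistatin, 0.17 ± 0.23 and Sst, somatostatin, 0.12 ± 0.16. Tac1, the substance P precursor, had -0.22 ± 0.54 and Nos1, neuronal nitric oxide synthase, -0.19 ± 0.26. Apart from Npy and Cck, each of these means was smaller in size than its SD between arrays.

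Of 17 transcription factors of interneuron origin that were measured, 13 including Lhx6 had a negative mean, beside 52.9% of all genes. Without Lhx6, 3 of 16 were negative on all of replicates 2 to 4, a share near the 17.3% of all genes. Nkx2-1, which acts upstream of Lhx6 in the medial ganglionic eminence, had a log2 ratio of -0.77, 0.051 and -0.23 on replicates 2, 3 and 4 and 0.14 on replicate 1. It was negative on replicates 2 and 4 and close to 0 on replicate 3, where the Lhx6 probes were at -0.51 and -0.41. Gsx1, a homeobox gene of ganglionic eminence progenitors, had the lowest mean, with -0.74, -0.26 and -0.23 on replicates 2, 3 and 4. Zeb2, a zinc finger factor needed for cortical interneuron fate, had -0.28 ± 0.044 (SD, n = 3) and Zfhx3 -0.29 ± 0.32.

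The distal-less genes, which switch on Gad genes in the ganglionic eminences, did not share a sign. Dlx1 had a mean of 0.0056 ± 0.082 (SD, n = 3), Dlx2 -0.23 ± 0.44 and Dlx5 -0.19 ± 0.50. Dlx2 and Dlx5 were low on replicate 3, at -0.73 each, and had 0.086 and 0.26 on replicate 2, where Gad2 was highest. Sox6 and Satb1, which act after Lhx6 in the same lineage, had means of -0.072 ± 0.24 and -0.047 ± 0.063. Prox1 had -0.36 ± 0.61, and Nr2f2, a marker of the caudal ganglionic eminence also known as COUP-TFII, had 0.36 ± 0.72, of which replicate 3 alone gave 1.19. Npas1 had 0.034 ± 0.20, Npas3 -0.38 ± 0.71 and Etv1 -0.20 ± 0.24. Pou3f4, a POU factor of the ventral forebrain, had 0.23 ± 0.11 and was the transcription factor of the list that was positive on all of replicates 2 to 4.

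Genes of interneuron migration lay around 0, with a group median of -0.025 over 7 genes. Erbb4, the neuregulin receptor of migrating interneurons, had a mean log2 ratio of -0.24 ± 0.29 (SD, n = 3). Cxcr4 and Ackr3, both receptors of the chemokine Cxcl12, had 0.093 ± 0.30 and -0.0062 ± 0.16. The guidance receptors Nrp1 and Robo1 had -0.025 ± 0.25 and -0.047 ± 0.27. Reln, the secreted matrix protein reelin, had -0.043 ± 0.25, and Vcam1, an adhesion molecule, had 0.15 ± 0.41. Each of these means was smaller than its SD between arrays.

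**Figure D3:**
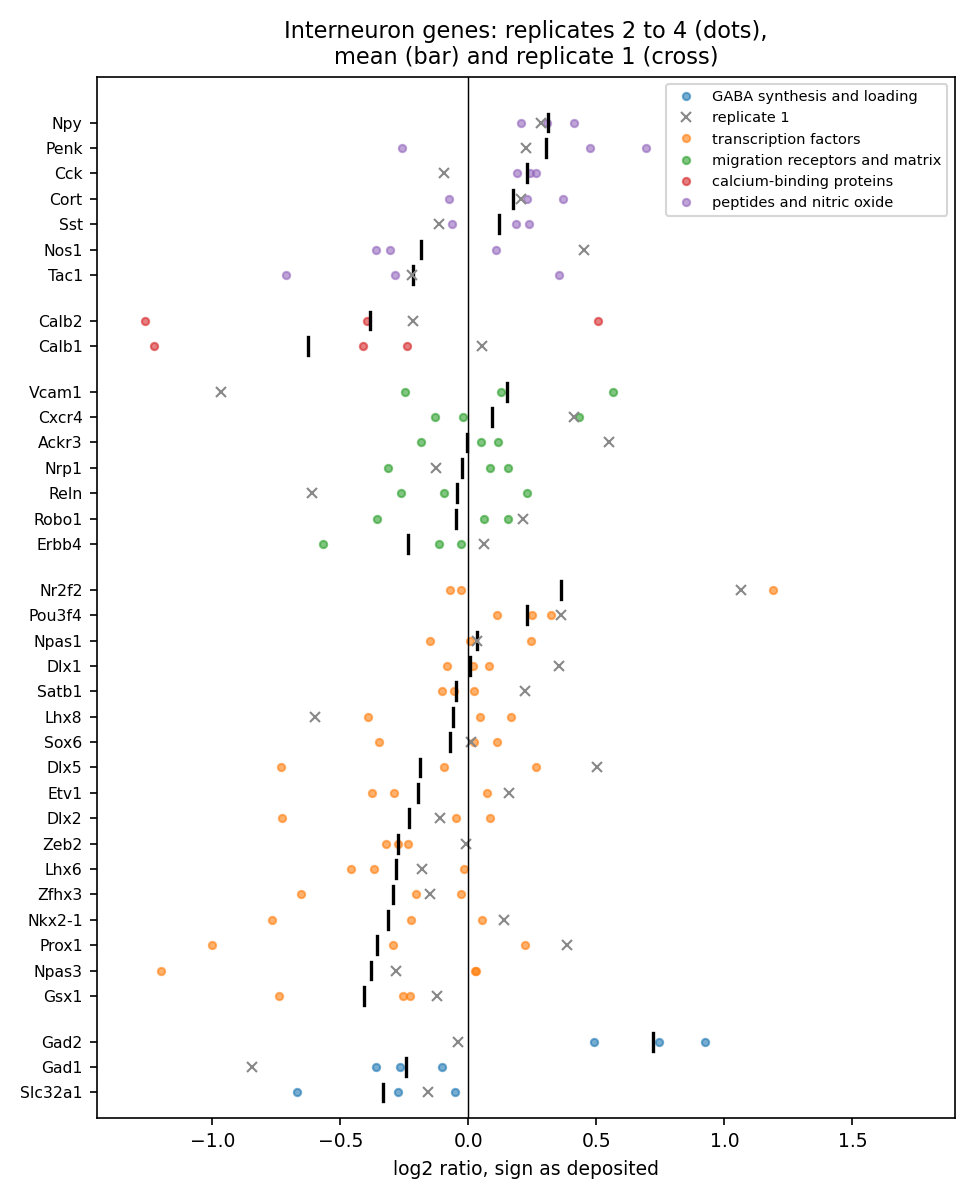
Log2 ratio, with the sign as deposited, of the 36 measured interneuron genes by role, with replicates 2 to 4 as dots, their mean as a bar and replicate 1 as a cross. Gad2 has the highest mean at 0.72 and Calb1 the lowest at -0.63, and both were chosen by their values on replicates 2 to 4. Most other genes have arrays on both sides of 0.

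Replicate 1 was not part of the fit of 3 arrays behind the choice of the members. On it, 19 of the 36 interneuron genes were positive and 17 negative as deposited. Of the 12 genes with 1 sign on replicates 2 to 4, 8 had the same sign on replicate 1 as deposited and 4 the opposite sign. Over all genes measured on 4 arrays, 47.1% of those with 1 sign on replicates 2 to 4 kept it on replicate 1 as deposited. Gad2 and Calb1 were among the opposite ones and Lhx6 among the same, with Gad2 and Calb1 near 0 there, at -0.042 and 0.052. Lhx6 is counted so only through the mean of its probes. The Lhx6 probe with ID 136 had 0.11 on replicate 4 and 0.18 on replicate 1. A single array allows no test.

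The families of Calb1 and Lhx6 were spread to both sides as well. Of 24 measured EF-hand genes, which encode calcium sensors and buffers, 8 were positive and 5 negative on all of replicates 2 to 4, or 33.3% and 20.8% beside 16.3% and 17.3% of all genes. Cetn3, a centrin, had the highest mean at 0.60 ± 0.52 (SD, n = 3), and Ncs1, neuronal calcium sensor 1, the lowest at -0.71 ± 0.70. A list of 14 genes held LIM homeobox and LIM-only genes and the cofactors Ldb1 and Ldb2. Of these, 2 were positive and 4 negative on all of replicates 2 to 4, or 14.3% and 28.6% beside 16.3% and 17.3% of all genes. The 5 negative EF-hand genes include Calb1 and the 4 negative LIM genes include Lhx6, both chosen by their log ratios on these arrays. Lhx6, as the mean of its probes, had the lowest mean of the 14, and the cofactor Ldb2, which binds LIM domains, had the highest at 0.49 ± 0.24. Both the rank of Lhx6 and its negative sign throughout rest on that averaging. Its probe with ID 136 had 0.11 on replicate 4 and a mean of -0.22, above the -0.25 of Ldb1. With limma, 0 genes of either list passed the adjusted threshold. At an unadjusted p under 0.05 stood 3 positive and 2 negative of 23 EF-hand genes besides Calb1, and 1 of 13 genes of the LIM list besides Lhx6, where 9.46% of all genes stood.

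The genes whose pattern over the 4 arrays was most like each member were sought among 5023 others by the root mean square difference of the log2 ratios, which does not depend on the sign given to replicate 1. For Gad2 the nearest were Zfp235 at a difference of 0.075, Chm at 0.084, Ednrb at 0.13, Cops2 at 0.15 and Col6a3 at 0.15, against a median of 0.72 over all genes. The Col6a3 value averaged probes that differed, IDs 305 and 369, at -0.93 and 0.37 on replicate 1 and 0.30 and 0.94 on replicate 3. For Lhx6 the nearest were Krt18 at 0.037, Oaz1 at 0.042, Prkcsh at 0.053, Arnt2 at 0.063 and Homer3 at 0.065, against a median of 0.42. The Lhx6 pattern was the mean of its 2 probes, which lay 0.72 apart on replicate 1, so these distances do not hold for either probe alone. Values near 0 have many neighbours, so small distances are common for Lhx6. The members were not near each other, with Calb1 at 1.28 and Lhx6 at 0.92 from Gad2 and Lhx6 at 0.46 from Calb1.

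For Calb1 the nearest gene was Ttr, transthyretin, which is abundant in the choroid plexus, at a difference of 0.084. Cacng1 followed at 0.13, Meis1 at 0.13, Rhbdf1 at 0.18 and Spo11 at 0.18. Ttr had a log2 ratio of -1.29, -0.41 and -0.33 on replicates 2, 3 and 4 and 0.18 on replicate 1, which is close to Calb1 on each array. In a list of meninges, choroid plexus, vessels and blood, 21 of 26 measured genes had a negative mean, or 80.8% beside 52.9% of all genes. On all of replicates 2 to 4, 15 of them were negative, or 57.7% beside 17.3% of all genes. The list median was -0.30, -0.45 and -0.26 on replicates 2, 3 and 4 and -0.14 on replicate 1. Its lowest mean was that of the collagen gene Col6a1 at -2.20 ± 1.46 (SD, n = 3). Ptgds, abundant in the meninges, had -1.36 ± 0.62, whereas Kl, another choroid plexus gene, had the highest mean at 0.62 ± 0.43. The list median was lowest on replicate 3, whereas Calb1 and Ttr were lowest on replicate 2. With limma, 0 of the 26 passed the adjusted threshold, and 12, of which 11 were negative, had an unadjusted p under 0.05, where 9.46% of all genes stood. The part of these tissues in the Calb1 values was not tested.

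Markers of neighbouring brain regions, where Gad2, Calb1 or Lhx6 are also expressed, and of cortical projection neurons were set beside the members. Striatal genes had 8 positive and 7 negative means of 15, a median of 0.037, and 3 genes of each sign on all of replicates 2 to 4. These were 20% of the list for each sign, beside 16.3% positive and 17.3% negative of all genes. Gng7, a G protein subunit, had the highest striatal mean at 0.39 ± 0.12 (SD, n = 3). Drd1, a dopamine receptor, had the lowest at -0.99 ± 1.42, which rested on -2.62 on replicate 3. Genes of the diencephalon and hypothalamus had 13 negative means of 18, or 72.2% beside 52.9% of all genes, and a median of -0.14, with Ghrh highest at 0.83 ± 0.57 and Sim1 lowest at -0.61 ± 0.64. On all of replicates 2 to 4, 5.56% of this list were positive and 27.8% negative. Projection neurons, the excitatory neurons of the cortex, had 20 negative means of 29 genes, or 69% beside 52.9% of all genes, and a median of -0.10, with Id2 highest at 0.59 ± 0.63 and Emx1 lowest at -0.63 ± 0.37. Of their genes, 17.2% were positive and 27.6% negative on all of replicates 2 to 4. With limma, 0 genes of these lists passed the adjusted threshold. At an unadjusted p under 0.05 stood 7 of 29 projection neuron genes, 5 of them negative, 3 of 15 striatal genes and 2 of 18 genes of the diencephalon and hypothalamus, beside 9.46% of all genes. The part of other regions and of projection neurons in the member values was not tested.

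**Figure D4:**
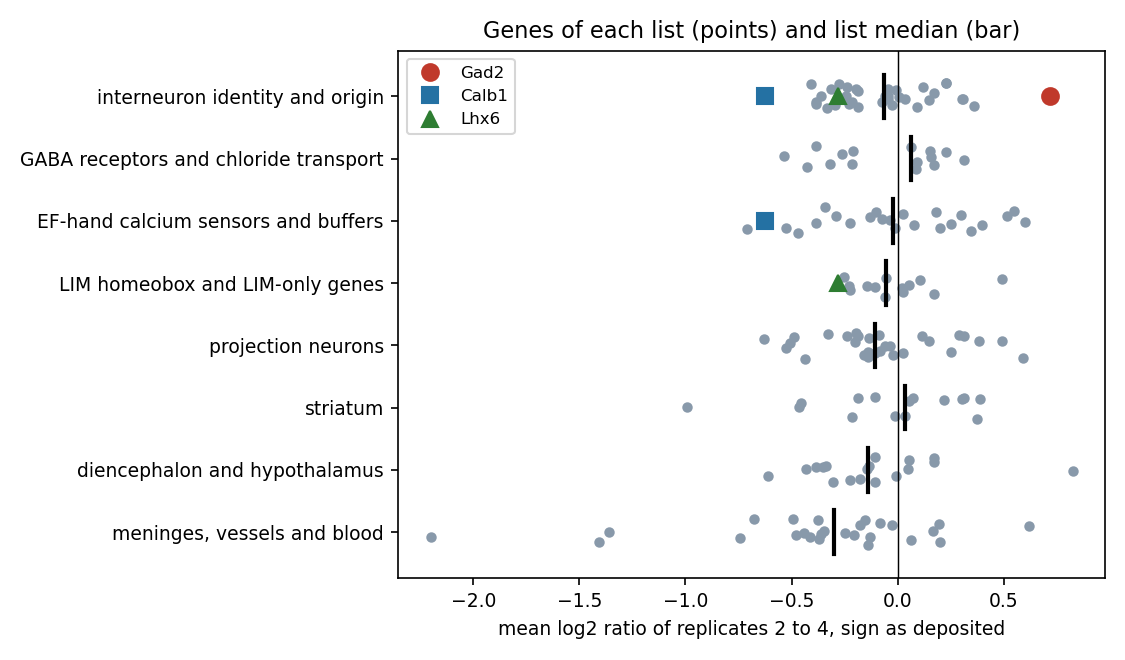
Mean log2 ratio of replicates 2 to 4, with the sign as deposited, of each measured gene (grey points) by list, with the list median as a black bar and Gad2, Calb1 and Lhx6 as coloured symbols. The interneuron median is -0.066 and that of meninges, vessels and blood -0.30. Gad2, which was chosen by its values on these arrays, lies beyond every other interneuron gene.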

How the data were processed

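RNA of 4 null samples was compared with a control pool on 4 two-colour arrays. The deposited values were the authors' processed log ratios, 1 column per array, read here as log2, since they centre on 0 and reach sizes too large for log10. No source used here gives the log base, numerator, background correction or normalization, and the item that could settle the direction is not reported here. The number of arrays limits the precision.

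Of 6856 probes, 6269 had a single symbol in the platform annotation, 6 had several and 581 none. Entrez IDs of 6250 were found in the RefSeq table of GRCm38.p6, which changed 0 symbols. Probes of a symbol were averaged for gene values. Probes with a value on replicates 2 to 4 were tested for a mean other than 0 in limma 3.58.1 (lmFit, eBayes; R 4.3.3), two-sided, with Benjamini-Hochberg adjustment. The steps were tested on simulated data.

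The members, gene lists and tests were chosen with earlier results of these data known. Named were the members, their relatives, every measured interneuron gene, the highest and lowest mean of each other list and the 5 genes nearest each member. Ptgds, and the genes singled out in the closing observations, were chosen after their values were seen. The motifs and the grouping by role were also chosen then. Alternatives were both signs of replicate 1 in fits of 4 arrays, median centring, a common scale, each array left out, a missing value allowed, array weights, an unadjusted threshold, averaging by gene and a single probe per gene.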

Additional observations from a re-analysis of the deposited data

Results flagged for a closer look

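Among 38 interneuron genes and probes, the 4 arrays were checked for a value that stands apart, with replicate 1 as deposited and turned, which made 76 checks. In 2 of them the gap of 1 array to its nearest neighbour took a larger share of the whole range than Dixon's critical value for 4 samples allows, where chance gives about 5% or 3.8 checks. Erbb4, the neuregulin receptor, had a gap of 0.843 of the range with replicate 1 turned, because replicate 3 was at -0.57 and the others lay between -0.11 and -0.030. Nrp1, a receptor of semaphorins, had 0.846 with replicate 1 turned, because replicate 3 was at -0.31 and the others lay between 0.083 and 0.16. None of the probes of Gad2, Calb1 and Lhx6 was set apart in this way.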

How the results depend on the processing

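The number of probes past the adjusted threshold of limma was 0 on replicates 2 to 4, 2 with all 4 arrays and replicate 1 as deposited, and 3 with array weights, and the cause was not tested. The 2 were unnamed probes (IDs 2965 and 2996), which with Smcp made up the 3, so no member was among them. At an unadjusted p of 0.05 the number was 553, with 1067 under array weights and 236 without replicate 2. Leaving out 1 of replicates 2 to 4 moved the mean of Gad2 between 0.62 and 0.83, that of Calb1 between -0.82 and -0.33, and that of Lhx6 between -0.41 and -0.19. The interneuron median lay between -0.13 and -0.059 under the same omissions, with the value farthest from 0 without replicate 4. With replicate 1 added, turned or as deposited, Gad2 had 0.55 or 0.53, Calb1 -0.48 or -0.46 and Lhx6 -0.17 or -0.26. Gad2 stayed positive, and Calb1 and Lhx6 negative, under these settings, median centring and a common scale. No paired analysis was possible because the arrays form a single group of ratios against 1 pool. Signal over background is unknown, so the depth behind each ratio cannot be given.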

Other observations

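The genes that receive and handle the transmitter made by Gad2 were also measured. Of 15 measured genes for GABA receptors and chloride transport, 8 had a positive mean on replicates 2 to 4, or 53.3% beside 47.1% of all genes, and the median was 0.065. Gabra2, a GABA-A receptor subunit, had the highest mean, with 0.15, 0.46 and 0.34 on replicates 2, 3 and 4 and 0.46 on replicate 1. Slc12a4, a potassium-chloride cotransporter, had the lowest, with -0.82, -0.45 and -0.35 on replicates 2, 3 and 4 and 0.60 on replicate 1. Gabra5 had -0.84, -0.021 and -0.42 on replicates 2, 3 and 4, and Slc12a2, the chloride importer of immature neurons, had 0.55, 0.16 and -0.022. With limma, 0 of the 15 passed the adjusted threshold and 1 had an unadjusted p under 0.05, a mark that 9.46% of all genes reached.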
